A study of Homo sapiens with 4 samples.

Results

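The genes of glycolysis, pyruvate entry, the tricarboxylic acid (TCA) cycle and the pentose phosphate pathway were followed as a set of 44 genes among the 58243 genes listed in the deposited tables. The members were taken by gene symbol from a fixed list of enzymes and transporters, and all 44 symbols were found once in each table. The RNA came from SH-SY5Y, a cell line long kept in culture that derives from a human neuroblastoma and serves as a stand-in for neurons. The control group comprised 2 libraries of cells given no agent, and the SNP group comprised 2 libraries of cells exposed to SNP, sodium nitroprusside, a nitric oxide donor. The labels describe the treated cells as differentiated with retinoic acid and the exposure as lasting 8 h, over a range of doses, and do not say which dose was sequenced or whether the controls were differentiated too. The RNA of the treated cells is called oxidized in the labels, which record no step that selected oxidized molecules. Libraries carry the letters a and b within each group. The labels say that treatments were run in triplicate within a single experiment and do not say what the letters stand for, so p-values measure only the spread between these libraries, which may be technical.

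Glycolysis splits glucose in the cytosol into pyruvate, with a small yield of ATP and NADH. Pyruvate then either becomes lactate, through lactate dehydrogenase, or enters the mitochondrion, where the pyruvate dehydrogenase complex turns it into acetyl-CoA for the TCA cycle. The pentose phosphate pathway branches off at glucose 6-phosphate and supplies NADPH, which serves antioxidant defence, and ribose for nucleotides. Neurons and neuroblastoma cells use all of these routes, and tumour lines in culture commonly run glycolysis at a high rate.

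Gene counts summed to between 5613144 and 8056550 per library, and the members held between 0.458% and 0.614% of them. Replicates had a Pearson correlation of log2 CPM (each count as a share of its library's total, on a common scale) of 0.982 in control and 0.984 in SNP, against 0.958 to 0.963 across the groups. Of 10 markers of noradrenergic neuroblastoma, 9 were counted in these libraries, with a summed level between 2191 and 2835 CPM. Tyrosine hydroxylase (TH) had 0 counts in all 4 libraries, which allows a level of up to 0.372 to 0.534 CPM at a limit of 3 counts, for counting error only. In the test described next, 3 of the 9 tested markers were higher in SNP and 5 were lower. Markers of other cells were low: the summed level lay between 0.504 and 1.39 CPM for 6 blood cell genes, between 1.13 and 2.16 CPM for 5 epithelial genes, and between 109.3 and 121.5 CPM for 6 fibroblast genes, of which COL3A1, PDGFRB and THY1 supplied nearly all. COL3A1 was higher in SNP and PDGFRB lower in the same test (log2 fold changes 0.68 and -0.91, edgeR adjusted p-values 7.4e-04 and 8.4e-05). PTPRC, CD3E, HBA1, HBB, KRT5, KRT14 and CDH16 had 0 counts in every library. Whether any of these markers had a part in the results below was not tested.

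Of the 17 genes of glycolysis and lactate dehydrogenase, 8 were lower after SNP and 1 was higher, and the glucose transporter gene SLC2A1 was lower too. Of the 4 subunits of pyruvate dehydrogenase among the members 2 were higher, PDHA1 and DLD. These calls were lost in 2 and 9 of 16 other fits, and DLD passed as lower with a correction for base composition. Of the 11 TCA cycle genes 2 were lower and 1 was higher. Counts were compared with edgeR's quasi-likelihood test over all 14759 genes that passed a filter on low counts, with Benjamini-Hochberg adjustment, and an adjusted p-value under 0.05 was the threshold. Of the 44 members, 43 entered the test. Of these, 13 were lower in SNP and 5 were higher, which is 30.2% and 11.6% of the members tested. Over all genes tested 26.2% differed, 12.6% being lower and 13.6% higher, or 1859 and 2002 genes. Scaling to the read totals implied by the RPKM column, in place of TMM, gave 1218 lower and 2085 higher genes, and 10 lower and 4 higher members. The median log2 fold change, SNP over control, was -0.14 over the members and -0.0042 over all genes tested. The groups did not overlap for 29 of the 43 members, or 67.4%, and for 64.0% of all genes tested. No member changed by as much as a factor of 2: the log2 fold changes ran from -0.96 for GAPDH to 0.61 for PDHA1. In bulk RNA, fewer cells with a transcript and less transcript per cell cannot be told apart, and CPM values are shares of each library.

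**Figure D1:**
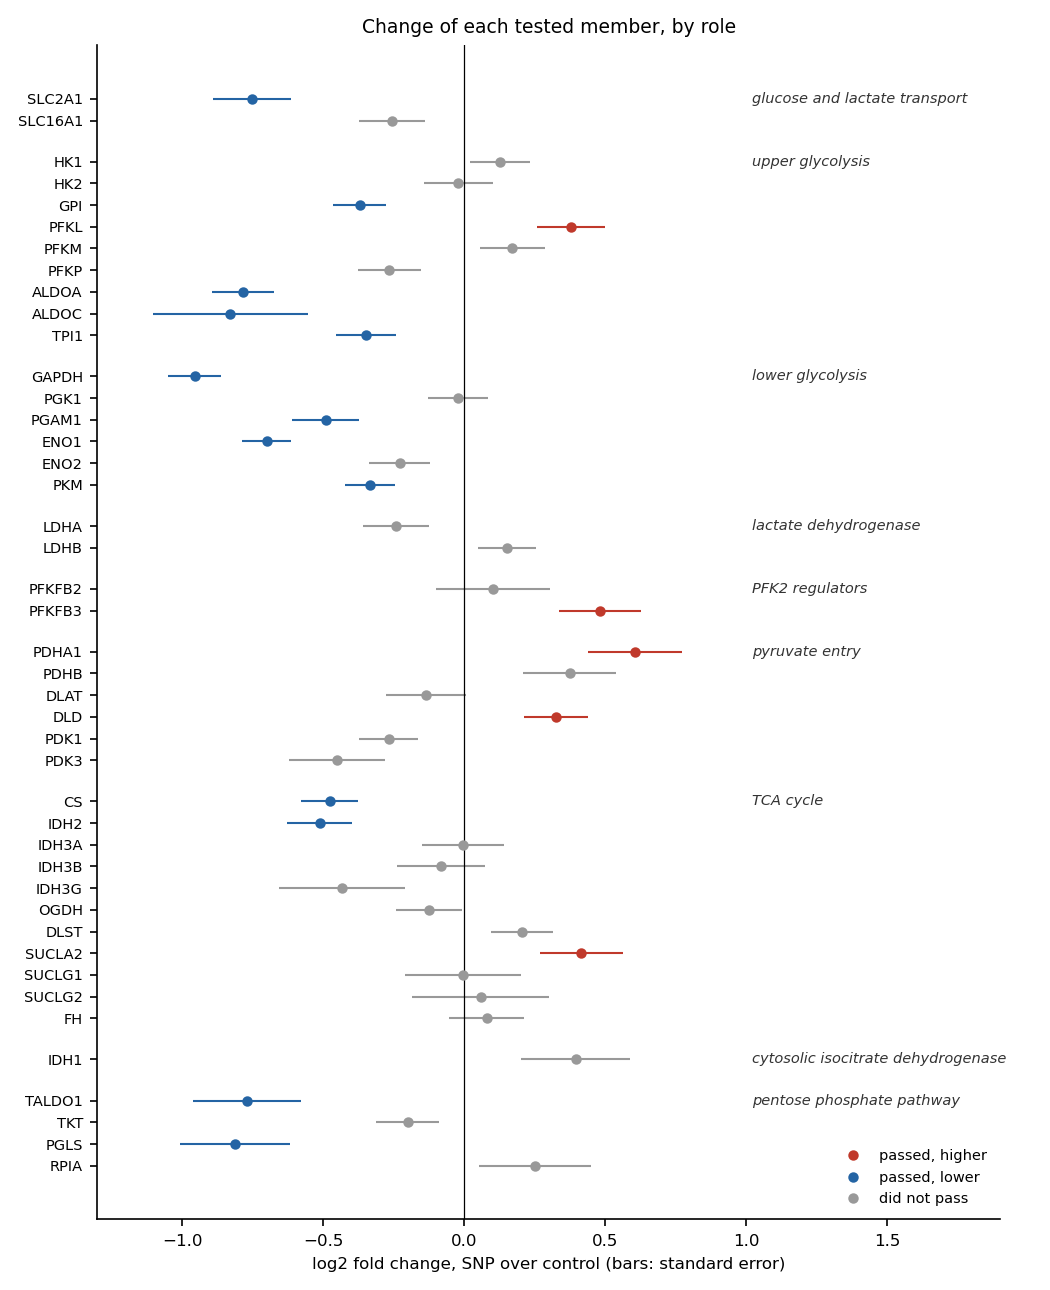
Log2 fold change of SNP over control for the 43 tested members, grouped by role, with bars for the standard error of the fit to 2 libraries per group. Points in colour passed at an adjusted p-value under 0.05: 13 members lie below 0, with GAPDH lowest at -0.96, and 5 lie above it, with PDHA1 highest at 0.61.

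Glucose enters the cell through facilitative transporters, and SLC2A1 (GLUT1), the form found in most cells, fell after SNP. The gene (ENSG00000117394) lies on chromosome 1, 42925375 to 42959176, minus strand (GRCh38, GENCODE 29). Its level was 70.2 and 96.6 CPM in control a and b, and 47.7 and 50.96 CPM in SNP a and b. Both SNP values were below both control values, although the control libraries were far apart, and the SNP mean was 59.2% of the control mean. The log2 fold change was -0.75 (SE 0.139, n = 2 per group), with an adjusted p-value of 4.2e-04 by edgeR's quasi-likelihood test. The fold change was -0.97 without control a and -0.51 without control b, still past the threshold, and was -0.47 after a correction for base composition described further on. SLC2A3 (GLUT3), the transporter typical of neurons, was counted 1 time in control a, 2 times in control b and 0 times in both SNP libraries, and did not enter the test. SLC16A1 (MCT1), which carries lactate and pyruvate across the plasma membrane, stood at 80.96 and 88.4 CPM in control and 74.8 and 66.9 CPM in SNP libraries and did not pass, with a log2 fold change of -0.26 and an adjusted p-value of 0.113 (edgeR). SLC16A1 passed as lower with offsets for length and GC content, at -0.32, and with the base composition correction, at -0.43.

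In upper glycolysis, the steps from glucose to the triose phosphates, 4 of 9 members fell, 1 rose and 4 did not pass. That was 44.4% lower and 11.1% higher, against 12.6% and 13.6% of all genes tested. The members that fell were the isomerase GPI, the aldolases ALDOA and ALDOC, and TPI1, the enzyme that interconverts the triose phosphates. ALDOA is the main aldolase of most tissues. The gene (ENSG00000149925) lies on chromosome 16, 30064164 to 30070457, plus strand (GRCh38, GENCODE 29). It stood at 247 and 278 CPM in the control libraries and at 138 and 167 CPM in the SNP libraries. The groups did not overlap, and the mean fell from 262 ± 21.8 to 152 ± 20.6 CPM (SD, n = 2 each), a log2 fold change of -0.78 (SE 0.108, edgeR adjusted p-value 2.5e-05). With the base composition correction ALDOA was at -0.44 and still passed. ALDOC, the aldolase of brain, was weakly counted, with 89 and 50 counts in control a and b and 45 and 55 counts in SNP a and b. Its log2 fold change of -0.83 (edgeR adjusted p-value 0.0295) was -0.48 without control a and -0.67 without SNP a, and passed in neither fit. It did not pass with the Wald test of DESeq2 (adjusted p-value 0.134), with offsets for length and GC content, at -0.72, or with the base composition correction, at -0.74.

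GPI, which converts glucose 6-phosphate to fructose 6-phosphate, was at 301 and 310.2 CPM in control and at 234 and 239 CPM in SNP libraries. The replicates were close and the groups were apart, with a log2 fold change of -0.37 (SE 0.0932, edgeR adjusted p-value 0.0054). The call was lost without control b, at -0.35, with read totals implied by RPKM, at -0.30, and with the base composition correction, at -0.13. TPI1 stood at 179 and 194 CPM in control against 158 and 135 CPM in SNP libraries, a log2 fold change of -0.35 with an adjusted p-value of 0.0189 (edgeR). It did not pass without control b, at -0.29, or without SNP b, at -0.24, nor with read totals implied by RPKM, at -0.27, or offsets for length and GC content, at -0.21.

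The kinases of upper glycolysis, which commit glucose to the pathway, were not among the genes called lower, although PFKP was with the base composition correction. Hexokinase phosphorylates glucose on entry. HK1 was at 103 and 107 CPM in control and at 117 and 113 CPM in SNP libraries, and HK2 at 92.1 and 119 CPM and at 109.6 and 97.9 CPM. Neither passed, with log2 fold changes of 0.13 and -0.021 and edgeR adjusted p-values of 0.404 and 0.923. Phosphofructokinase, the main control point of the pathway, is built from liver (PFKL), muscle (PFKM) and platelet (PFKP) type subunits. PFKL rose, from 61.7 and 70.7 CPM to 81.1 and 90.8 CPM, with a log2 fold change of 0.38 (SE 0.120, edgeR adjusted p-value 0.0237). That call did not hold without control a, at 0.28, without SNP b, at 0.30, with the Wald test of DESeq2 (adjusted p-value 0.0666), or with the base composition correction, at 0.14. PFKM, at 73.4 and 74.03 against 78.6 and 87.4 CPM, and PFKP, at 119.8 and 135 against 99.95 and 112 CPM, did not pass (log2 fold changes 0.17 and -0.26, edgeR adjusted p-values 0.297 and 0.0811). PFKP passed as lower with the base composition correction, at -0.59, and without SNP b, at -0.34, but was at -0.18 without control b and -0.19 without SNP a. With the same correction HK2 was at -0.29 and did not pass. PFKFB3, whose product fructose 2,6-bisphosphate activates phosphofructokinase, was higher in SNP. Its values were 28.5 and 30.4 CPM in control and 39.4 and 42.8 CPM in SNP libraries, a log2 fold change of 0.48 (SE 0.146) and an edgeR adjusted p-value of 0.0183. The groups were apart, but the call was lost without control a, at 0.43, without control b, at 0.53, and with DESeq2 (adjusted p-value 0.0734). PFKFB2 of the same family did not pass, at 18.4 and 16.9 CPM against 22.4 and 15.4 CPM (log2 fold change 0.10, edgeR adjusted p-value 0.752).

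Lower glycolysis, the steps from glyceraldehyde 3-phosphate to pyruvate that return ATP and NADH, had 4 of 6 members lower in SNP and 0 higher. Lower calls made up 66.7%, against 12.6% of all genes tested, and the median log2 fold change was -0.41. At an unadjusted p-value under 0.05 edgeR had 5 lower and 0 higher, and DESeq2 and limma-voom each called 4 lower and 0 higher. Over all genes DESeq2 called 1143 lower and 1272 higher, and limma-voom 1877 lower and 1960 higher. The share of all genes at the unadjusted threshold was not counted. GAPDH, the dehydrogenase that opens this stage and a common reference gene for expression assays, showed the largest fall of all members. The gene (ENSG00000111640) lies on chromosome 12, 6533927 to 6538374, plus strand (GRCh38, GENCODE 29). It was counted 6404 and 6351 times in control a and b and 4045 and 4486 times in SNP a and b, although the SNP libraries were deeper. In normalised terms GAPDH was at 988 and 1128 CPM in control and 509 and 582 CPM in SNP libraries. The SNP mean of 545 ± 51.2 CPM was 51.6% of the control mean of 1058 ± 98.9 CPM (SD, n = 2 each), with a log2 fold change of -0.96 (SE 0.0946, edgeR adjusted p-value 4.7e-07). It lay between -1.05 and -0.86 in the fits that left out 1 library, and at -0.55, still past the threshold, with the base composition correction. A total of 62 pseudogenes carry its name in the annotation, and together they held 13 counts against 21286 for GAPDH itself.

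ENO1, the ubiquitous enolase, fell as well. The gene (ENSG00000074800) lies on chromosome 1, 8861000 to 8879250, minus strand (GRCh38, GENCODE 29). Its level was 649 and 689.7 CPM in control and 404 and 419 CPM in SNP libraries, which left a wide gap between groups and little spread within them. The log2 fold change was -0.70 (SE 0.0886, edgeR adjusted p-value 8.9e-06), and it was nearly the same, -0.68, with the base composition correction. ENO2, the enolase of neurons, did not pass, at 108 and 107 CPM in control and 94.5 and 88.9 CPM in SNP libraries (log2 fold change -0.23, edgeR adjusted p-value 0.127). PGAM1, the mutase between PGK1 and enolase, went from 88.7 and 101 CPM to 71.6 and 63.01 CPM, a log2 fold change of -0.49 (edgeR adjusted p-value 0.0042) that did not pass without control b, at -0.40. PKM, the pyruvate kinase that ends the pathway, stood at 467 and 454 CPM in control and 362 and 369 CPM in SNP libraries. The change was small but the replicates were tight, with a log2 fold change of -0.33 (SE 0.0891, edgeR adjusted p-value 0.0085). It did not pass without control a, at -0.32, or with read totals implied by RPKM, at -0.27. PGK1, the kinase that forms the first ATP of this stage, did not pass, at 161 and 165 CPM against 174 and 148 CPM, a log2 fold change of -0.021 (edgeR adjusted p-value 0.911).

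Lactate dehydrogenase, which interconverts pyruvate and lactate, is a tetramer of the subunits LDHA and LDHB. LDHA was at 273 and 242 CPM in control and 249 and 186 CPM in SNP libraries, so that SNP a lay within the control range and SNP b below it. LDHB was at 187 and 198 CPM in control and 229.9 and 197 CPM in SNP libraries, with SNP b again inside the control range. Neither passed, at log2 fold changes of -0.24 and 0.15 and edgeR adjusted p-values of 0.135 and 0.299. LDHA passed as lower without SNP a, at -0.47, and with offsets for length and GC content, at -0.31, but was at -0.043 without SNP b. With the base composition correction both were lower and passed, at -0.38 for LDHA and -0.30 for LDHB, so the direction of LDHB depended on it.

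**Figure D2:**
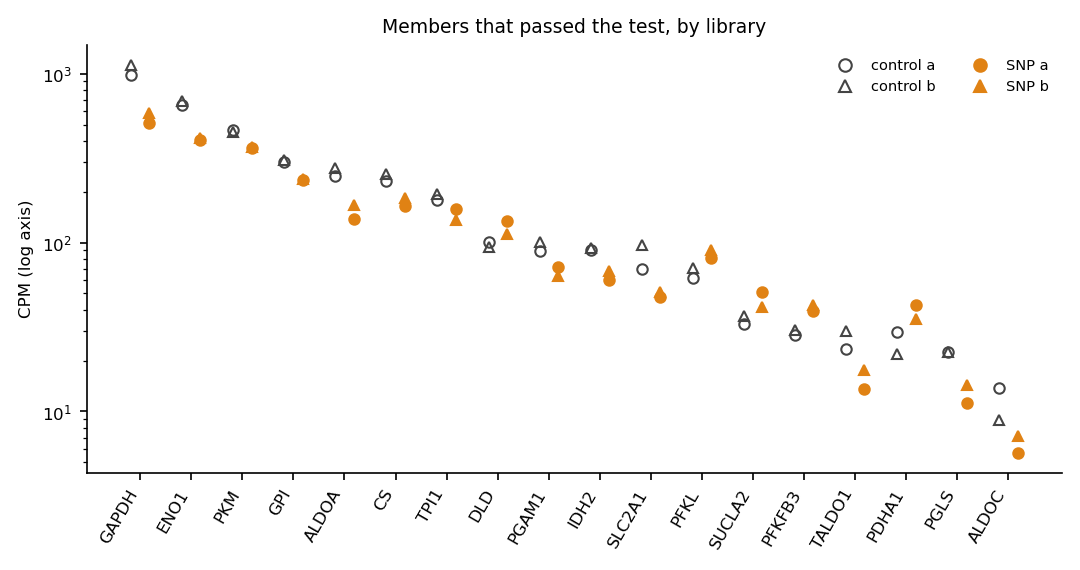
Normalised level in CPM, on a log axis, of the 18 members that passed the test, in order of their control mean; open symbols are control and filled symbols SNP, circles replicate a and triangles replicate b. GAPDH falls from 988 and 1128 CPM to 509 and 582 CPM, and no member shown has an SNP value between its control values.

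The promoters of the well counted members with the largest falls (GAPDH, ALDOA, SLC2A1 and ENO1) and of the members with the largest rises (PDHA1 and PFKFB3), chosen after their values were seen, are shown because glycolytic genes are textbook targets of hypoxia-inducible factor and of MYC, which bind short core motifs. Each line gives a window of 300 bases, most of it upstream, around the transcription start listed first by RefSeq for GRCh38.p14, read 5′ to 3′ on the strand of the gene, with every match to ACGTG or GCGTG on either strand in capitals (on the opposite strand these read CACGT and CACGC).
GAPDH: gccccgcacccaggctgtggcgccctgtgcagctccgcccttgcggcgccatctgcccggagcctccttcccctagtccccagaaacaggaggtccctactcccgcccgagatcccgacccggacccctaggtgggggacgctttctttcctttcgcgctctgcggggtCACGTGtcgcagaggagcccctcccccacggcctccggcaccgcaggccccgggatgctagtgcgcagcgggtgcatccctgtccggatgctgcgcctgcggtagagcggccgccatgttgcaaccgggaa
ALDOA: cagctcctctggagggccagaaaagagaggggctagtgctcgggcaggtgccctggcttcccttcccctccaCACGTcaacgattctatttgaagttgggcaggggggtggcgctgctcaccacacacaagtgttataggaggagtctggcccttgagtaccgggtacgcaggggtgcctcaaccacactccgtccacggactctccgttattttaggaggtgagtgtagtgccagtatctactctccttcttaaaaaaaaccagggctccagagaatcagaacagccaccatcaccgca
SLC2A1: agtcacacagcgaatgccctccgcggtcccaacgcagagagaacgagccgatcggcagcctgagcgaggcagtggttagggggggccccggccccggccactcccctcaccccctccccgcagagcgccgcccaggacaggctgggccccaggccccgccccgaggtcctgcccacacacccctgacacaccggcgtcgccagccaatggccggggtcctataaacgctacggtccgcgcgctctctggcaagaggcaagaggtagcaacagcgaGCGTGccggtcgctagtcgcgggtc
ENO1: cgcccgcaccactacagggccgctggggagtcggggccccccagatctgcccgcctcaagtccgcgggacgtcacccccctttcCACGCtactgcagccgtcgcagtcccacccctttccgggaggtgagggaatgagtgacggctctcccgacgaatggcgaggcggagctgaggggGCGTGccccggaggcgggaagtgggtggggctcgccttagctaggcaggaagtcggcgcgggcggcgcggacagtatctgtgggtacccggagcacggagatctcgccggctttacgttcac
PDHA1: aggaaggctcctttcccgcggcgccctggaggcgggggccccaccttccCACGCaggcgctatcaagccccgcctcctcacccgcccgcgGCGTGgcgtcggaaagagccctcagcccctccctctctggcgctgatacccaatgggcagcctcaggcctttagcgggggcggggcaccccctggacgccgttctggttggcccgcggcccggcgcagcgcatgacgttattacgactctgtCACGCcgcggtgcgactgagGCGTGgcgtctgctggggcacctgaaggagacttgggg
PFKFB3: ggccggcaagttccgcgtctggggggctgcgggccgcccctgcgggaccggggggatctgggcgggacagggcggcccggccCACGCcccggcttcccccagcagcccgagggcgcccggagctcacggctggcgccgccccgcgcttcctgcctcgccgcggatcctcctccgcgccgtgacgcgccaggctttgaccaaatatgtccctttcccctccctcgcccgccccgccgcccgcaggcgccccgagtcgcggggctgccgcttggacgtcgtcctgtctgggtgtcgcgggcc
The GAPDH window lies at chr12:6535014-6535313 on the plus strand and holds the palindrome CACGTG, which counts as a match to ACGTG on both strands. All of this window lies inside the gene as annotated in GENCODE 29, which starts at 6533927, so it surrounds an internal start. The SLC2A1 and ENO1 windows also lie inside their annotated genes. The other windows are at chr16:30064029-30064328 (plus) for ALDOA, chr1:42958819-42959118 (minus) for SLC2A1, chr1:8878637-8878936 (minus) for ENO1, chrX:19343677-19343976 (plus) for PDHA1 and chr10:6144671-6144970 (plus) for PFKFB3. A promoter was found for 40 of the 44 members. Only the start listed first was used for each gene, although some members have more, such as ALDOA with 3 and PFKFB3 with 2. ACGTG was present in 13 of the 40 (32.5%) and GCGTG in 23 (57.5%), against 21.6% and 36.3% of all 27305 promoters of the same length. The palindrome CACGTG was in 4 of the 40 (10.0%) and in 7.43% of all promoters. Among members that were lower in SNP, 4 of 13 held ACGTG and 5 of 13 GCGTG; among those that were higher, 0 of 5 held ACGTG and 4 of 5 GCGTG. Matches of this kind describe the letters of the window and are not evidence of binding.

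At the entry of pyruvate into the mitochondrion, edgeR's quasi-likelihood test had 2 of 6 members (33.3%) higher, against 13.6% of all genes tested, and 0 lower. At an unadjusted p-value under 0.05 it had 3 higher and 2 lower (PDK1 and PDK3), a threshold at which the share of all genes was not counted. DESeq2 called 1 higher and 0 lower, against 1272 and 1143 over all genes. With limma-voom 2 were higher and 0 lower, against 1960 and 1877 over all genes. PDHA1 encodes the catalytic alpha subunit of pyruvate dehydrogenase, whose phosphorylation switches the complex off. The gene (ENSG00000131828) lies on chromosome X, 19343893 to 19361705, plus strand (GRCh38, GENCODE 29). PDHA1 was counted 191 and 123 times in control and 341 and 274 times in SNP libraries, or 29.5 and 21.8 against 42.9 and 35.5 CPM. The SNP mean was 153% of the control mean, with a log2 fold change of 0.61 (SE 0.167, edgeR adjusted p-value 0.0101). The groups did not overlap, but the call was lost without control b, at 0.41, and without SNP a, at 0.46. DLD, the dihydrolipoyl dehydrogenase shared with the oxoglutarate dehydrogenase complex, was at 101 and 94.8 CPM in control and 133 and 112 CPM in SNP libraries. Its log2 fold change of 0.32 (edgeR adjusted p-value 0.0387) was the least stable of the calls: it was lost in 9 of 16 other fits, among them those without control a (0.37), control b (0.28) and SNP a (0.19), and with the base composition correction DLD passed in the opposite direction, as lower, at -0.27 (adjusted p-value 0.0312, edgeR). PDHB, the beta subunit, was at 21.3 and 23.6 CPM against 30.7 and 27.4 CPM and did not pass (log2 fold change 0.37, edgeR adjusted p-value 0.101). DLAT, the acetyltransferase core, was at 56.6 and 63.9 CPM against 62.7 and 46.8 CPM and did not pass either (-0.14, edgeR adjusted p-value 0.516).

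The pyruvate dehydrogenase kinases, which inactivate the complex, had lower values in SNP without passing. PDK1 was at 259 and 304 CPM in control and 249 and 219 CPM in SNP libraries, and PDK3 at 25.1 and 29.6 CPM and at 19.9 and 20.1 CPM. The groups of each gene did not overlap, with log2 fold changes of -0.27 and -0.45 and edgeR adjusted p-values of 0.0617 and 0.0548, just above the threshold. PDK1 passed as lower without control a, at -0.38, and without SNP a, at -0.36, but was at -0.15 without control b and -0.17 without SNP b. Both kinases passed as lower with a filter at a mean of 50 counts, at -0.26 and -0.45, and with offsets for length and GC content, at -0.35 and -0.53. With the base composition correction PDK1 passed, at -0.33, and PDK3 did not, at -0.36. PDK2, a kinase outside the 44 members, fell from 20.05 and 22.2 CPM to 9.19 and 9.34 CPM, a log2 fold change of -1.19 (SE 0.203, edgeR adjusted p-value 2.1e-04). PDK2 shares 2113 of its 5481 exonic bases with SAMD14 on the other strand, which had 708 counts, so the division of reads between them is uncertain. PDP1, a phosphatase that reactivates the complex, rose from 39.3 and 38.3 CPM to 60.7 and 56.1 CPM (0.59, edgeR adjusted p-value 0.002), and PDP2, another such phosphatase, fell by 0.35 on the log2 scale (edgeR adjusted p-value 0.0486). PDP2 did not pass without control a, without control b or without SNP a, where its log2 fold changes were -0.47, -0.22 and -0.25. PDP1 and PDP2 were named after their values were seen.

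In the TCA cycle 2 of 11 members fell, 1 rose and 8 did not pass, with a median log2 fold change of -0.0033. The share called was 27.3%, near the 26.2% over all genes tested. The fall was in CS, the citrate synthase that opens the cycle, and in IDH2, the mitochondrial NADP-dependent isocitrate dehydrogenase. CS was at 231 and 254 CPM in control and 166 and 183 CPM in SNP libraries. The gene (ENSG00000062485) lies on chromosome 12, 56271699 to 56300392, minus strand (GRCh38, GENCODE 29). The groups did not overlap, and the log2 fold change was -0.48 (SE 0.101, edgeR adjusted p-value 0.0014), or -0.28 with the base composition correction. IDH2 was at 89.9 and 92.9 CPM in control and 60.4 and 67.7 CPM in SNP libraries, 70.1% of control on average, with a log2 fold change of -0.51 (SE 0.116, edgeR adjusted p-value 0.0024). SUCLA2, the ATP-forming subunit of succinyl-CoA ligase, was the member that rose, from 33.2 and 36.6 CPM to 51.2 and 41.6 CPM (log2 fold change 0.42, edgeR adjusted p-value 0.0399). The SUCLA2 call was lost in 8 of 16 other fits, including those without control a (0.34), control b (0.49) and SNP a (0.26), and with the base composition correction (0.098).

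The other TCA cycle members did not pass in the fit to all 4 libraries without a correction. IDH3A, the catalytic subunit of the NAD-dependent isocitrate dehydrogenase, was at 36.4 and 33.6 CPM in control and 35.6 and 34.2 CPM in SNP libraries, a difference well inside the spread. OGDH, the first component of the oxoglutarate dehydrogenase complex, was at 81.3 and 89.8 CPM against 74.3 and 82.6 CPM. DLST, the core of the same complex, was at 86.1 and 87.3 CPM against 103 and 96.98 CPM, with an edgeR adjusted p-value of 0.18, and passed as higher with the base composition correction, at 0.30. IDH3G showed a wide control spread, 22.7 and 13.7 CPM against 12.7 and 14.4 CPM, and its log2 fold change was -0.74 without control b, where it passed as lower, and -0.017 without control a. IDH3B, SUCLG1, SUCLG2 and FH had log2 fold changes between -0.083 and 0.080. IDH1, the cytosolic isocitrate dehydrogenase that makes NADPH outside the cycle, was at 16.96 and 20.1 CPM in control and 28.3 and 20.2 CPM in SNP libraries (log2 fold change 0.40, edgeR adjusted p-value 0.138), and passed as higher without SNP b, at 0.62, but was at 0.13 without SNP a.

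In the pentose phosphate pathway 2 of 4 members (50%) fell, against 12.6% of all genes tested. PGLS, the lactonase of the oxidative branch that makes NADPH, was at 22.4 and 22.4 CPM in control and 11.2 and 14.3 CPM in SNP libraries. TALDO1, the transaldolase of the branch that links pentoses back to glycolysis, was at 23.6 and 29.8 CPM in control and 13.6 and 17.6 CPM in SNP libraries. For both genes the groups did not overlap and the SNP means were 56.9% and 58.5% of control. The log2 fold changes were -0.81 (SE 0.194) for PGLS and -0.77 (SE 0.191) for TALDO1, with edgeR adjusted p-values of 0.0038 and 0.0049. PGLS did not pass with the base composition correction, at -0.40, and TALDO1 did not pass without control b, at -0.60. TKT, the transketolase that works beside TALDO1, was at 147 and 167 CPM in control and 125 and 149 CPM in SNP libraries, and did not pass (edgeR adjusted p-value 0.199), although it did as lower without SNP b, at -0.33, and was at -0.079 without SNP a. RPIA, which isomerises ribose 5-phosphate, did not pass at 13.3 and 14.2 CPM against 16.7 and 15.9 CPM (edgeR adjusted p-value 0.378).

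Glycolysis was then set against pyruvate entry and the TCA cycle, each with 17 members. Of the 17 glycolytic enzymes, lactate dehydrogenase included, 8 fell and 1 rose, or 47.1% and 5.88%; of the 17 genes of pyruvate entry and the TCA cycle, 2 fell and 3 rose, or 11.8% and 17.6%. The shares over all genes tested were 12.6% lower and 13.6% higher. The median log2 fold changes were -0.26 and -0.0033, which differ by -0.26, or by -0.16 with offsets for length and GC content. In summed CPM, the glycolytic set held 4111 and 4380 CPM in control a and b and 3116 and 3101 CPM in SNP a and b, so that the SNP sums were 73.2% of control on average. The sums for pyruvate entry and the TCA cycle were 1173 and 1255 CPM in control and 1153 and 1079.8 CPM in SNP libraries, 91.98% of control. The ratio of the first sum to the second was 3.50 and 3.49 in control a and b and 2.70 and 2.87 in SNP a and b. These ratios did not overlap, and the groups were further apart than the replicates of either. GAPDH and ENO1 supplied much of that gap: without them the ratio was 2.11 and 2.04 in control and 1.91 and 1.95 in SNP libraries, still without overlap. With them kept, and the kinases PDK1 and PDK3 left out of the second sum, that sum was 95.3% of control. The ratio was then 4.62 and 4.76 in control and 3.52 and 3.69 in SNP libraries. The members were chosen with results of these data known, so the difference carries no p-value, and nothing here shows it to be particular to these lists.

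**Figure D3:**
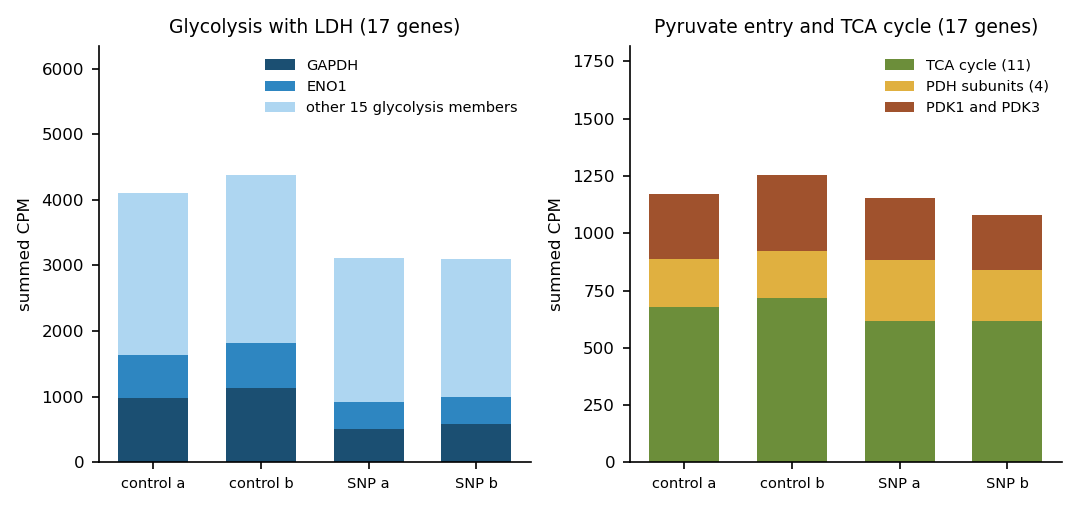
Summed normalised level in CPM per library of the 17 glycolysis members (left, with GAPDH and ENO1 shown apart) and of the 17 members of pyruvate entry and the TCA cycle (right, with the kinases PDK1 and PDK3 shown apart). The glycolysis bars are 4111 and 4380 CPM in control and 3116 and 3101 CPM in SNP libraries, and the bars on the right lie between 1079.8 and 1255 CPM in all 4 libraries; the vertical scales differ.

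Levels of different genes were compared on the deposited TPM scale, which accounts for transcript length. GAPDH was the most abundant member, at 1544 and 1796 TPM in control and 853 and 1020.3 TPM in SNP libraries, followed by ENO1 at 764 and 828 TPM and at 510.3 and 554 TPM. By the mean over the 4 libraries the lowest of the tested members was PFKFB2, at 8.78 TPM, with values between 7.86 and 10.97 TPM. The enzymes of the TCA cycle lay between those, from SUCLG2 at a mean of 17.5 TPM to CS at a mean of 159 TPM over the 4 libraries.

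Several steps are served by more than 1 gene, and the share of each isozyme or subunit gene in its family was followed over the 4 libraries for 13 families. With 2 libraries per group an exact permutation test cannot go below a two-sided p-value of 0.333, so the shares are given as values. Of the TPM of the phosphofructokinase genes, PFKL held 16.5% and 17.2% in control against 22.4% and 22.5% in SNP libraries, and PFKP held 59.3% and 60.6% in control against 51.0% in both SNP libraries. ENO2 took 13.3% and 12.6% of enolase TPM (ENO1 and ENO2) in control against 17.8% and 16.4% in SNP libraries. LDHB took 58.9% and 63.0% of lactate dehydrogenase TPM in control against 65.8% and 68.9% in SNP libraries. In the phosphofructokinase, enolase and lactate dehydrogenase families the groups did not overlap and the change was larger than the spread within either group. Lack of overlap was not particular to these families. It also held for the families of SLC2A1, PDK1, IDH1 and OGDH, and for IDH3A, SUCLA2 and SUCLG1 within theirs. These shares carry no base composition correction. With it the log2 fold changes of LDHA and LDHB were close to each other, at -0.38 and -0.30. PFKL, PFKM and PFKP were at 0.14, -0.17 and -0.59, and ENO1 and ENO2 at -0.68 and -0.068, still apart. IDH1 took 10.1% and 11.4% of the summed TPM of IDH1 and IDH2 in control against 21.8% and 15.1% in SNP libraries, a shift with a wide spread among the SNP libraries. SUCLA2 held 54.7% and 53.1% of succinyl-CoA ligase TPM in control against 60.4% and 60.6% in SNP libraries. With the base composition correction the log2 fold changes of SUCLA2, SUCLG1 and SUCLG2 were 0.098, 0.051 and -0.19. HK1 held 52.8% and 47.3% of hexokinase TPM in control against 51.5% and 53.4% in SNP libraries, and ALDOA 89.5% and 93.7% of aldolase TPM in control against 92.0% and 91.8% in SNP libraries, so the groups overlapped for both.

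**Figure D4:**
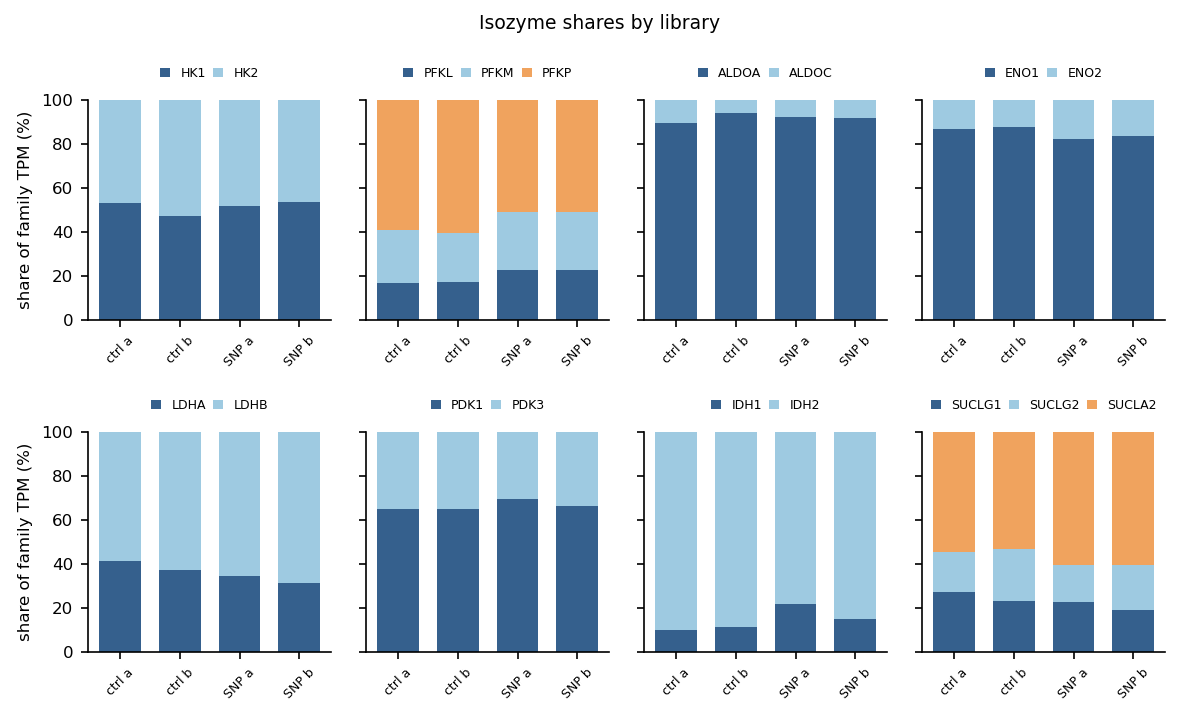
Share of each isozyme or subunit gene in the summed TPM of its family, in percent, for 8 families in the 4 libraries (bars reach 100%). PFKP takes 59.3% and 60.6% of its family in control and 51.0% in both SNP libraries, while the hexokinase and aldolase bars of the groups overlap.

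A list of 67 further genes of the same pathways gave 48 that could be tested, of which 12 were lower and 5 higher in SNP, or 25% and 10.4%, against 12.6% and 13.6% of all genes tested. Of those that passed, TIGAR, PDK2 and SDHB changed by more than a factor of 2. TIGAR, a p53 target whose product lowers fructose 2,6-bisphosphate, rose from 12.03 and 12.4 CPM to 27.4 and 28.1 CPM, a log2 fold change of 1.18 (SE 0.182, edgeR adjusted p-value 6.8e-05). The annotation holds a readthrough gene that shares 1711 of the 4017 exonic bases of TIGAR. SDHB, the iron-sulfur subunit of succinate dehydrogenase, fell from 27.8 and 24.5 CPM to 14.7 and 10.4 CPM (-1.06, edgeR adjusted p-value 4.9e-04). SDHC, the membrane subunit of the same complex, named after its value was seen, rose from 145 and 136 CPM to 197 and 174 CPM (0.40, edgeR adjusted p-value 0.0069), and did not pass without control b, at 0.35. RPE, an epimerase of the pentose phosphate pathway, rose from 92.1 and 89.3 CPM to 132 and 119.8 CPM (0.47, edgeR adjusted p-value 0.0028). BSG (basigin), the partner protein of the lactate transporters, fell by 0.46 on the log2 scale (edgeR adjusted p-value 0.0042), and did not pass without control b, at -0.37. With the base composition correction the changes of BSG and RPE were -0.16 and 0.11 and did not pass. Of the gluconeogenesis genes both that were tested fell, G6PC3 by 0.92 and PCK2 by 0.85 on the log2 scale (edgeR adjusted p-values 9.5e-04 and 6.4e-04). PCK2 was named after its value was seen.

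Some of these counts may be shared between genes. In the annotation, 26 of the 44 members share exonic bases with another gene, and whether the authors' counting used strand is not given in the sources used here. DLD shares 70 of 5299 exonic bases with LAMB1, which had 10914 counts against 3119 for DLD, and PFKM shares 628 of 7318 with SENP1. PDHA1 shares 956 of 4493 with MAP3K15, which had 17 counts. ALDOA shares 1657 of 3916 exonic bases with an overlapping gene of the same strand, and LDHB 997 of 2983. ENO1 and PGAM1 have 4 and 13 pseudogenes of their names, which held 322 and 44 counts against 14537 and 2197 for the genes. How reads were divided in these cases was not tested.

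Across these libraries the log2 ratio moves with the base composition of the transcripts, and it did so among the members too, though many lay below the level of all genes. Guanine minus cytosine content is given here in percentage points of the bases of all annotated transcripts of a gene (GENCODE 29, GRCh38). Its Spearman correlation with the log2 fold change was 0.632 across the 43 tested members and 0.480 across 14724 genes tested; genes share the libraries and are not independent, so no p-value is given. Of 11 members with more cytosine than guanine, 6 were lower in SNP and 1 higher, and the median log2 fold change was -0.43. Of the other 32, 7 were lower and 4 higher, with a median of -0.012. Over all genes tested, in 20 groups by this content, the median ran from -0.47 at -5.53 points to 0.45 at 6.29 points. Calls among all genes of like composition were not counted, so these member counts are not read as a result about the members. GAPDH has -3.30 points, and the 561 tested genes within 0.5 points of it had a median log2 fold change of -0.39, against -0.96 for GAPDH. For ALDOA, at -3.28 points, the corresponding median was -0.39 over 569 genes. ENO1, at 0.96 points, had 2261 such genes with a median of -0.028, and TALDO1, at 0.55 points, had 2157 with a median of -0.056. DLD, at 6.65 points, had 194 such genes with a median of 0.47, above its own 0.32. PFKFB3, at -0.24 points, had 1804 with a median of -0.11, below its own 0.48.

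Each library was also corrected for length, for GC content and for guanine minus cytosine content. The median of the 17 glycolysis members was then -0.31, against -0.12 for the 17 genes of pyruvate entry and the TCA cycle. The median of all 14759 genes was 0.0021, and that of all tested members was -0.26, against -0.14 without the correction. The members called were then 16 lower and 3 higher, against 1314 lower and 1437 higher of all genes tested in the same fit. The shift of the glycolysis median against the other 17 genes was -0.19 with this correction, -0.16 with offsets for length and GC content alone and -0.26 with neither. The 6 members GAPDH, ENO1, ALDOA, SLC2A1, CS and IDH2 passed in this and in all of the other 15 fits, including each fit without 1 library; the other 12 calls were lost in at least 1 of the 16.

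**Figure D5:**
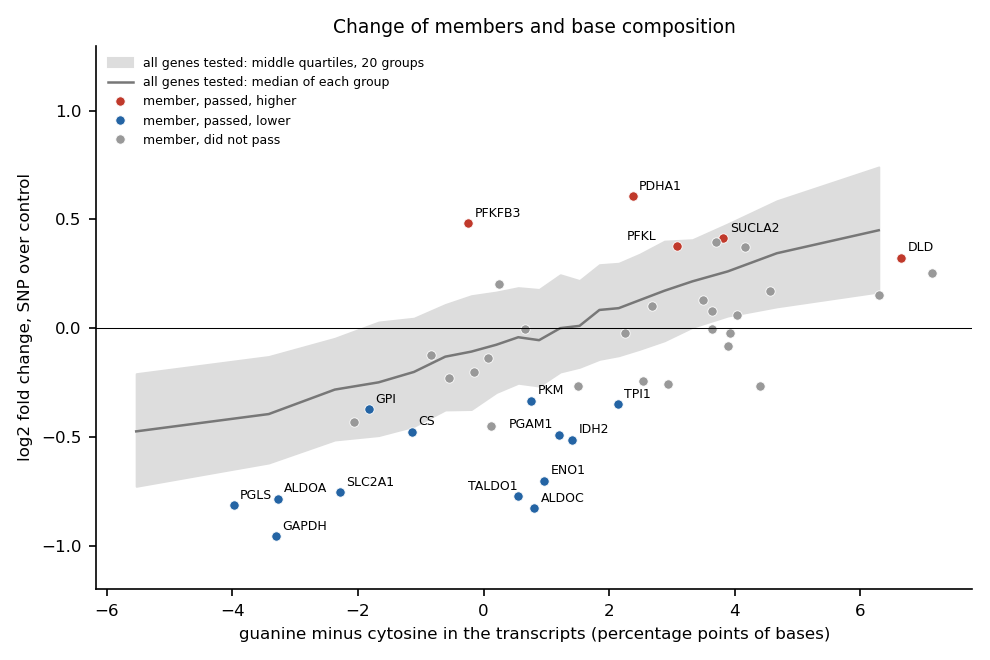
Log2 fold change of SNP over control against guanine minus cytosine content of the transcripts, in percentage points of bases, for the 43 tested members (points); the line and the shaded band give the median and the middle quartiles of all genes tested in 20 groups of nearly equal size. GAPDH, ALDOA, SLC2A1 and PGLS lie at the left below the band, and ENO1, TALDO1 and ALDOC lie below it near the centre. Other members below the band include PGAM1, IDH2, TPI1, PKM, CS and PFKP, while PDHA1, PFKFB3 and DLST lie above it.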

How the data were processed

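RNA of 2 control and 2 SNP libraries of SH-SY5Y cells was sequenced, per the labels at 75 bases and about 40 M reads a sample. The authors deposited a table per library with a whole-number count per gene ("Expression value"), TPM and RPKM, per the file headers. The genome was GRCh38, per the submitters' processing notes; the aligner, the counter and the use of strand are not given in the sources used here. The RPKM column implies totals of 48.7 to 62.0 M reads, of which the deposited counts are 11.5% to 13.3%.

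Counts were fitted with edgeR 4.0.16 in R 4.3.3 (filterByExpr with a minimum count of 10, TMM factors of 0.989 to 1.01, glmQLFit and glmQLFTest on group, Benjamini-Hochberg over 14759 genes, threshold 0.05; common biological coefficient of variation 0.0869). CPM uses TMM-scaled totals. The deposited TPM served levels between genes and isozyme shares. The members and lists were chosen with earlier results of these data known. Values per library are given for members that passed with a log2 fold change of 0.5 or more in size, for their isozymes and for steps that set the rate, and others were added for context. From each further list, genes that passed with 1 or more, else the largest rise and fall that passed, are named, except 1 that is not reported here. A limit for 0 counts is 3 counts.

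Alternatives were 2 other filters, 4 other scalings, DESeq2 1.42.0, limma-voom (limma 3.58.1), the replicate letter as a block, stricter thresholds and leaving out each library. Lowess offsets per library were a further alternative, on length and GC content, and on these with guanine minus cytosine content (base composition correction, GENCODE 29). The scripts were tested on simulated data. The letters are not stated to mark a shared experiment, and deviations of same-lettered libraries had a correlation of 0.050.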

Additional observations from a re-analysis of the deposited data

How the results depend on the processing

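GAPDH, ENO1, ALDOA, SLC2A1, CS and IDH2 passed in all 12 alternative fits and all 4 fits without 1 library, and the other 12 of the 18 calls were lost in at least 1. In the latter the lone library of a group is assumed to vary like the other group. With 2 libraries per group and 5613144 to 8056550 counts each, small changes of weakly counted members cannot be separated from replicate spread. Where a count or direction moved, the cause was not tested, beyond fewer libraries or a stricter threshold.

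Over all genes, higher and lower calls were 1272 and 1143 with DESeq2, 1156 and 1068 at a threshold of 0.01, and 400 and 247 where the log2 fold change also had to reach 1 in size; lower calls were 1218 with read totals implied by RPKM. Among members, higher calls were 3 without a filter, with length and GC offsets (with or without the replicate block) and with the base composition correction, 1 with DESeq2 and 0 at 0.01; at a fold change of 1, higher and lower calls were 0. Glycolysis had 0 higher calls with DESeq2, with the base composition correction and at 0.01, and 5 lower calls with read totals implied by RPKM. Pyruvate entry and the TCA cycle had 1 higher call without a filter, with DESeq2 and with length and GC offsets, with or without the block, and 0 at 0.01. They had 4 lower calls with a filter at a mean of 50 counts, with the replicate block, with length and GC offsets, with both, and with the base composition correction. Neither set had a call at a fold change of 1. The further pathway genes had 3 higher and 6 lower calls with the base composition correction. The difference of medians, glycolysis against pyruvate entry and TCA cycle, was -0.23 with limma-voom, -0.16 with length and GC offsets, -0.16 with the block as well, -0.19 with the base composition correction and -0.24 without GAPDH and ENO1, an alternative chosen after seeing the data. In TPM in place of counts the share of PFKL moved by 5.54 points, that of PDK1 by 2.80 and that of IDH3A by 2.35.

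Without 1 library, calls over all genes were 1244 to 2155 higher and 1162 to 1989 lower. Members called were 1 to 5 higher and 10 to 14 lower, glycolysis 0 to 1 higher and 5 to 8 lower, pyruvate entry and TCA cycle 0 to 3 higher and 2 to 3 lower, and further pathway genes 4 to 6 higher and 6 to 12 lower. The difference of medians was -0.30 to -0.26.

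With the replicate letter as a block, 17 members were lower and 5 higher, against 13 and 5 without it (PFKP, LDHA, PDK1 and PDK3 were the calls gained). Over all genes the block gave 2173 lower and 2314 higher, against 1859 and 2002 without it. The difference of medians with the block was -0.25. The letters are not known to pair the libraries.

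The direction reversed with the base composition correction for HK1 (-0.11), PFKM (-0.17), LDHB (-0.30), PFKFB2 (-0.049), DLD (-0.27), OGDH (0.038), SUCLG1 (0.051), SUCLG2 (-0.19), FH (-0.043) and RPIA (-0.18). With read totals implied by RPKM it did so for HK2 (0.056), PGK1 (0.051), IDH3A (0.063) and SUCLG1 (0.069). Without 1 library the log2 fold change spanned 0 for HK2 (-0.20 to 0.17), PGK1 (-0.14 to 0.096), PFKFB2 (-0.19 to 0.35), DLAT (-0.36 to 0.063), IDH3A (-0.060 to 0.054), IDH3B (-0.19 to 0.027), SUCLG1 (-0.31 to 0.25) and SUCLG2 (-0.22 to 0.37). With length and GC offsets IDH3B was at 0.039 (0.038 with the block) and SUCLG2 at -0.011. IDH3A and SUCLG1, near 0 throughout, were at 4.6e-05 and 7.2e-05 with a mean of 50 counts, 2.9e-04 and 0.0014 with size factors of DESeq2, and 7.8e-04 and 0.0011 with its Wald test. DLD was a called member among these, and none of the others was.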
